A study of Oryza sativa with 12 samples.

Results

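The 132 rice genes described here were those whose transcripts crossed a level of 1 CPM (counts of a gene per 1000000 gene counts of the library) with heat in the cultivar BR-IRGA 409. They were chosen by these measured values: each lay below 1 CPM in every BR-IRGA 409 library from 29 °C, at or above 1 CPM in every one from 38 °C, and had a mean at 38 °C at least 4 times its mean at 29 °C. They were 132 of 57174 genes listed (0.231%), or 0.622% of the 21215 genes that reached 1 CPM in at least 3 of the 12 libraries.

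RNA was taken from spikelets of the middle of the panicle of flooded rice (Oryza sativa) at anthesis. The groups were IRGA 428, labelled sensitive to heat, at 29 °C (control) and at 38 °C (treated), and BR-IRGA 409, labelled tolerant, at 29 °C (control) and at 38 °C (treated). All plants grew in a greenhouse until the panicle emerged and then stood in growth chambers, where the temperature was held for 7 h of the day on 3 days. Each group had 3 libraries, and each library pooled 2 plants, so differences between single plants were not measured.

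Heat at flowering is known to harm pollination and seed set in rice. Plant cells are known to meet heat by activating heat shock transcription factors, which raise genes for chaperones and for enzymes that remove reactive oxygen, many of them silent or barely transcribed at moderate temperature. Which of the genes described here belong to that response could not be said: the files give IDs that begin with MH and no names, and 0 of the 132 IDs matched the rice reference table used here. No role, gene length, sequence or coordinate is therefore given, tissue markers could not be checked, and an order of genes by CPM, which is not per length, is an order by reads and not by transcript level.

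Library depth ran from 7.08 M to 75.4 M gene counts (M, 1000000 counts), and in both cultivars all 38 °C libraries were deeper than all 29 °C libraries. In BR-IRGA 409 the 29 °C libraries held 7.08 M, 15.0 M and 8.08 M and the 38 °C libraries 39.0 M, 45.8 M and 75.4 M. In IRGA 428 the depths were 8.88 M, 16.4 M and 15.8 M at 29 °C and 16.5 M, 20.7 M and 27.0 M at 38 °C. The number of genes at 1 CPM or more was nevertheless close in all libraries, between 19641 and 20280. In IRGA 428, control 3 and treated 1 stood apart from their labels: the biological coefficient of variation between them, the relative spread beyond counting error, was 0.0791, below that of every pair within a group of this cultivar (0.115 to 0.369). Whether either library carries a wrong label cannot be told from the files, and a wrong label would change the values for heat in IRGA 428. The main counts and medians there, and most log2 fold changes of genes described below, are therefore given with and without these 2 libraries.

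In BR-IRGA 409 the genes went from a few reads per library to levels that were mostly low. The median of their mean levels was 0.343 CPM at 29 °C and 2.72 CPM at 38 °C, the lowest mean at 38 °C was 1.15 CPM and the highest 60.6 CPM. At 38 °C 38 of the 132 genes had a mean below 2 CPM, 25 reached 5 CPM, 8 reached 10 CPM and 4 reached 20 CPM. These values chose the genes and are a description, not a test of heat.

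Calling the genes switched on overstates what the counts show, since 131 of the 132 had at least 1 read at 29 °C. The 3 libraries from 29 °C together held 0 to 24 reads of a gene, with a median of 11, and 10 genes had 3 reads or fewer. A level just below 1 CPM corresponds to at most 7, 14 and 8 reads in the 29 °C libraries. At 38 °C the summed reads of a gene ran from 180 to 8739, with a median of 438.5, so the level at 38 °C was measured far more precisely than the level at 29 °C. Among genes with any read at 29 °C, the ratio of the means had a median of 7.65 and ran from 4.04 to 454.

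The fold condition divided a continuous range. Another 97 genes met both level conditions with a ratio below 4, which makes 229 in all. The gene just inside the limit had mean levels of 0.604 CPM at 29 °C and 2.44 CPM at 38 °C, a ratio of 4.04. The gene just outside had 0.316 CPM and 1.25 CPM, a ratio of 3.95.

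**Figure D1:**
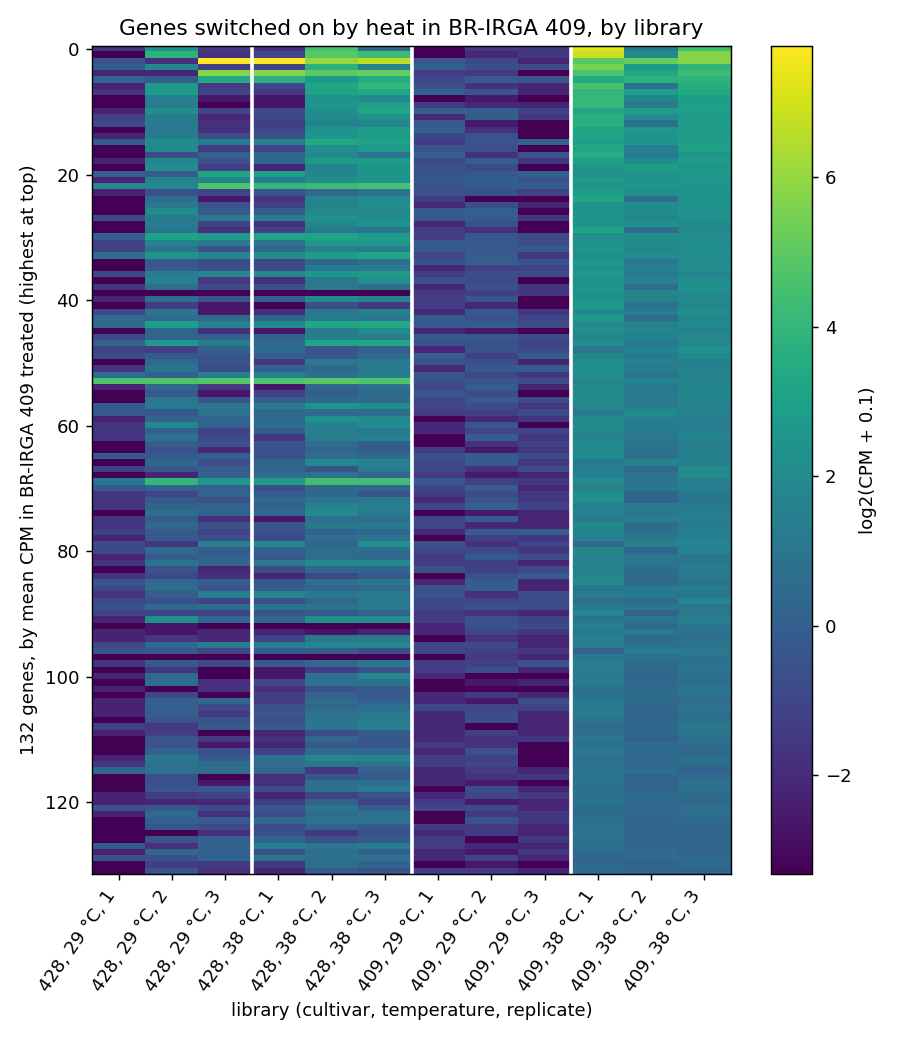
Levels of the 132 genes (rows, ordered by mean CPM in BR-IRGA 409 at 38 °C) in the 12 libraries (columns), as log2(CPM + 0.1). The columns of BR-IRGA 409 change from dark to light between 29 °C and 38 °C because this chose the genes, while in IRGA 428 control 2, treated 2 and treated 3 are lighter than control 1, control 3 and treated 1.

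The 3 heat libraries of BR-IRGA 409 did not carry the genes equally. The median level of the 132 genes was 3.42 CPM in treated 1, 2.01 CPM in treated 2 and 2.78 CPM in treated 3. Treated 1 held the highest value for 100 of the genes (75.8%) and treated 2 the lowest for 99 (75.0%). Over the 21215 genes at 1 CPM in 3 libraries, treated 1 was highest for 38.4% and treated 2 lowest for 27.9%. The same libraries chose the genes, and without treated 2 the rule gave 209, so these shares are a description.

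For most genes the 3 heat libraries differed by less than 2 times, though for 85 they differed by at least 1.5 times. The highest value was a median of 1.65 times the lowest, below 1.5 times for 47 genes, at least 2 times for 40 and at least 10 times for 3. In 13 genes the heat libraries differed by at least 4 times, and all 13 were highest in treated 1 and lowest in treated 2, with medians of 12.8, 1.72 and 7.12 CPM in treated 1, 2 and 3. The same 13 genes had medians of 0.113, 2.26 and 0.253 CPM in the controls of IRGA 428 and 0.424, 3.48 and 2.96 CPM in its treated libraries, so treated 1 of IRGA 428 lay nearer to controls 1 and 3 than to the other heat libraries.

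Both genes named for the highest mean at 38 °C belonged to those 13. MH01g0775400 had 0, 0.268 and 0.248 CPM (0, 4 and 2 reads) at 29 °C and 157.8, 2.51 and 21.3 CPM at 38 °C in BR-IRGA 409. Its heat libraries differed by 62.9 times, the widest range among the 132 genes, and its mean of 60.6 ± 84.8 CPM (SD, n = 3) rested mostly on treated 1. In IRGA 428 MH01g0775400 had 0.225, 4.76 and 0.253 CPM at 29 °C and 0.182, 23.2 and 1.19 CPM at 38 °C, so the temperatures overlapped there.

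MH02g0593700 had 0, 0.134 and 0.248 CPM (0, 2 and 2 reads) at 29 °C and 115, 4.04 and 53.8 CPM at 38 °C in BR-IRGA 409. With 4 reads in all at 29 °C, the ratio of pooled reads at 38 °C over 29 °C was 410. The exact Clopper-Pearson 95% interval of 160 to 1507 covers counting error only. It leaves out the spread of the heat libraries, which differed by 28.5 times. The same contrast chose the gene, so the ratio and its interval are a description and not a test of heat. In IRGA 428 MH02g0593700 had 0, 14.2 and 0.189 CPM at 29 °C and 0.424, 29.6 and 19.2 CPM at 38 °C. Control 2 was above treated 1, and treated 2 and 3 were above all controls.

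Summed over the 132 genes, BR-IRGA 409 had 45.5, 60.0 and 35.2 CPM in its libraries from 29 °C and 910, 362 and 580 CPM in those from 38 °C. The 3 genes with the most reads in each heat library supplied 319, 58.2 and 128 CPM of this.

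**Figure D2:**
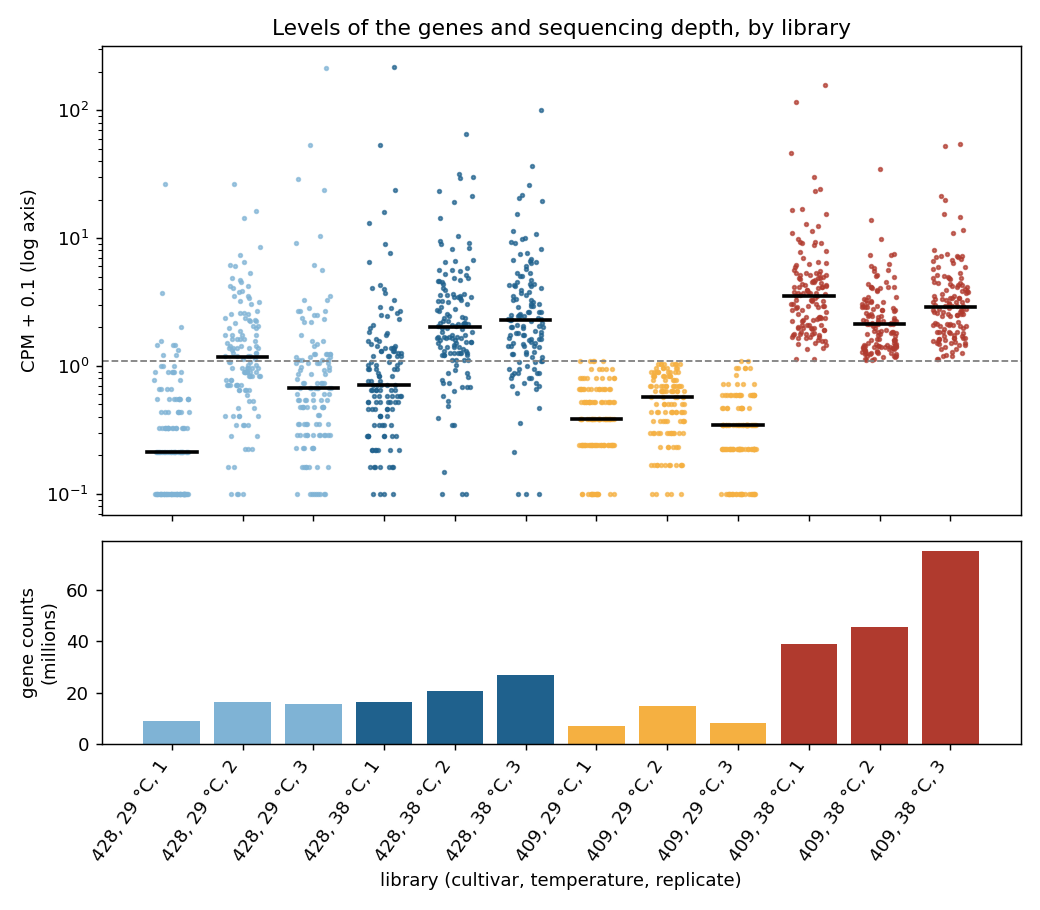
Top, the CPM of each of the 132 genes (points, with 0.1 added, log axis) and their median (bar) in each library, with a dashed line at 1 CPM; bottom, gene counts per library in M. The BR-IRGA 409 groups lie on either side of the line by choice of the genes, and the IRGA 428 medians run from 0.113 CPM in control 1 to 2.17 CPM in treated 3.

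IRGA 428 was the cultivar whose libraries had no part in choosing the genes, and there most of the 132 genes also had higher values at 38 °C. The log2 fold change was positive for 128 genes (97.0%), negative for 2 and not defined for 2 with no reads in this cultivar (entered as 0), with a median of 1.24 and an interquartile range of 0.81 to 1.69. The lowest value, −2.45, rested on 1 read in control 2 and 0 reads in the other libraries of this cultivar. Over all 22321 genes tested 49.3% were positive, and the median was −0.003. The means in plain CPM, without rescaling of the libraries, were higher at 38 °C for 125 of the 132 genes (94.7%), against 39.2% of the genes tested, and at least 2 times higher for 89 (67.4%), against 3.22%.

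None of the 132 genes passed the test in IRGA 428. In the quasi-likelihood test of edgeR, adjusted by Benjamini-Hochberg, 0 of the 132 and 0 of all 22321 genes (0%) had an adjusted p below 0.05, and the smallest adjusted p among the 132 was 0.401. At an unadjusted p below 0.05 there were 43 of the 132, all higher at 38 °C (32.6%), where 4.85% of all genes passed in that direction, and 0 lower, where 6.86% of all genes passed. Limma-voom called 0 of the 132 and 0 in all, and DESeq2 called 0 of the 132 and 13 in all. All 132 genes passed the filter on low counts, which their level in BR-IRGA 409 at 38 °C ensured.

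The count of 0 rested on IRGA 428 control 3. Without it, edgeR called 13 of the 132 genes (9.85%), all higher at 38 °C, by 1.70 to 8.70 on the log2 scale and with adjusted p-values between 0.000555 and 0.0438. Among all genes, 3.4% were called higher in that fit. Without both control 3 and treated 1 it was again 13 genes, 10 of them shared, where 2.64% of all genes were called higher. At an unadjusted p below 0.05 there were then 55 of the 132 genes higher (41.7%; 12.8% of all genes) and 0 lower (13.5% of all genes). The log2 fold change was positive for 127 genes without both libraries (96.2%; 51.4% of all genes). Its median over the 132 genes was 1.19 without control 3, 1.53 without both, and 1.98 without control 2. It was lower, 0.88, without control 1, the shallowest library of this cultivar, and 0.98 without treated 3.

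**Figure D3:**
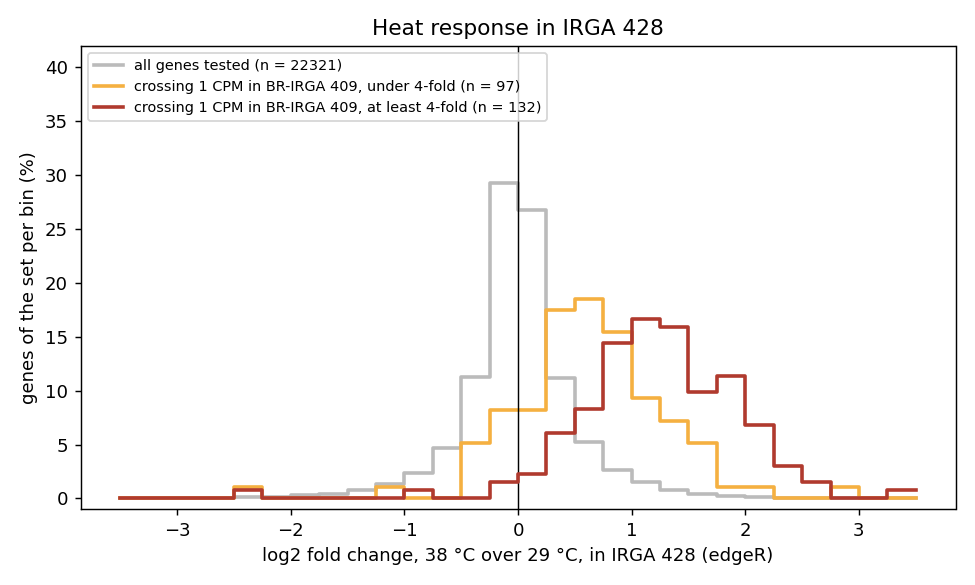
Distribution of the log2 fold change of 38 °C over 29 °C in IRGA 428 (edgeR, bins of 0.25, values beyond the axis placed in the outer bins), in percent of each set, for the 132 genes, the 97 genes that met the level conditions in BR-IRGA 409 with a ratio below 4, and all 22321 genes tested. The medians are 1.24, 0.62 and −0.003.

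The genes that met the level conditions but not the fold condition lay between. Not all were near the limit: their edgeR log2 fold changes in BR-IRGA 409 ran from 0.43 to 2.08, with a median of 1.54. The 97 genes with a ratio below 4 in BR-IRGA 409 had a median log2 fold change of 0.62 in IRGA 428, and 84.5% of them were positive. Their median level in IRGA 428 was 0.450, 0.976 and 0.884 CPM in the controls and 0.847, 1.26 and 1.41 CPM in the treated libraries. Without control 3 and treated 1 of IRGA 428, their median log2 fold change was 0.88, and 84 of the 97 were positive. Whether the sets differed was not tested.

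Library by library, the groups of IRGA 428 were not separated. The median level of the 132 genes was 0.113, 1.07 and 0.568 CPM in controls 1, 2 and 3 and 0.605, 1.91 and 2.17 CPM in treated 1, 2 and 3. At 1 CPM or more stood 10, 68 and 39 of the genes in the controls and 46, 110 and 106 in the treated libraries. Treated 2 and 3 were thus highest, control 1 was lowest, and control 2 lay above treated 1.

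Single genes mostly followed this order. Treated 2 and 3 both exceeded every control for 94 of the 132 genes (71.2%), against 14.1% of all genes tested. However, control 2 exceeded treated 1 for 91 (68.9%). The share over all genes was not counted for that order, so it is not read as particular to the 132. All 3 treated libraries lay above all 3 controls for 20 genes (15.2%), against 4.05% of all genes, and below them for 1 (0.758%), against 8.23%. On library sizes scaled by TMM (trimmed mean of M-values), as in the fit, these were 22 genes (16.7%), against 5.73%, and 0, against 5.83%. Without control 3 and treated 1, the remaining treated libraries lay above the remaining controls for 106 genes in plain CPM (80.3%), against 23% of all genes, and below them for 1, against 38.7%. Control 1 held the lowest value of the 6 libraries, ties included, for 101 genes, and treated 3 and treated 2 the highest for 65 and 44. For these counts, too, no share over all genes was counted.

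Depth and the share of reads with several alignments moved with these levels in part. The 3 shallowest libraries of IRGA 428 were its controls, with control 1 the shallowest, and its deepest were treated 3 and 2. Treated 1 was slightly deeper than control 2 (16.5 M against 16.4 M) with a lower median (0.605 against 1.07 CPM). Reads with several alignments were 4.08%, 4.38% and 4.30% of the IRGA 428 controls and 4.12%, 4.62% and 4.90% of its treated libraries. In BR-IRGA 409 these shares were 3.70%, 3.76% and 3.82% at 29 °C and 5.00%, 5.11% and 5.34% at 38 °C. Among its 38 °C libraries treated 1 had the lowest depth and share but the highest median of the 132 genes (3.42 CPM). The deepest, treated 3, had 2.78 CPM. With all libraries thinned at random to 7.08 M gene counts, the medians of the 132 genes in IRGA 428 were 0.141, 0.989 and 0.565 CPM in the controls and 0.706, 1.98 and 2.12 CPM in the treated libraries. The median log2 fold change was then 1.39 over the 112 genes that passed the filter. The part of the share of reads with several alignments in these levels was not tested, and a property of the libraries that goes with depth cannot be told apart from temperature. In these bulk samples, more RNA per cell and more cells of a type that expresses a gene cannot be told apart either.

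**Figure D4:**
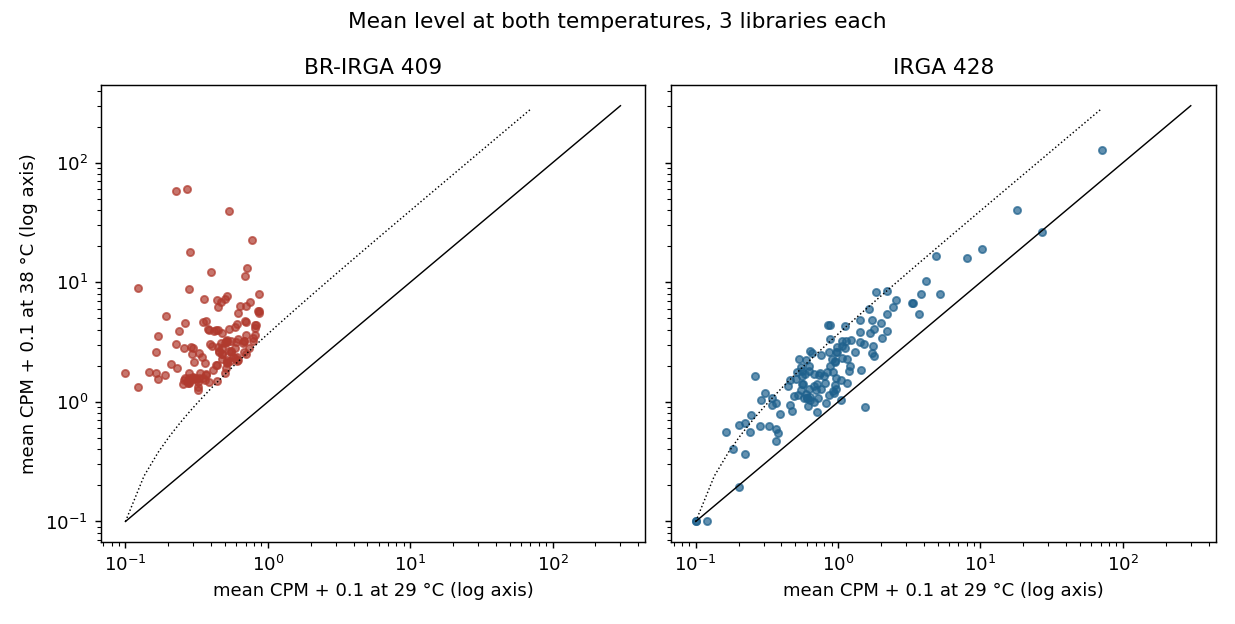
Mean CPM of the 132 genes at 29 °C (x axis) and 38 °C (y axis) in BR-IRGA 409 (left) and IRGA 428 (right), with 0.1 added, on log axes; the solid line marks equal levels and the dotted line a ratio of 4. In IRGA 428, 18 of the genes reach a ratio of 4 and 89 a ratio of 2. The median of their means at 29 °C there is 0.725 CPM, and 50 of the genes lie below 1 CPM in each control.

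The off-to-on pattern itself was not found again in IRGA 428. The rule applied to the IRGA 428 libraries was met by 0 of the 132 genes and by 2 of the 57174 listed genes (0.0035%). Below 1 CPM in each of its controls were 50 of the 132 genes, and 42 were at 1 CPM or more in each of its treated libraries. Only 3 genes met both level conditions, and their mean ratios were below 4. Without control 3 and treated 1, the whole rule was met by 17 of the 132 genes and by 76 of all listed genes (0.133%), and without treated 1 alone by 11 and 47 (0.0822%).

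By level in all 6 IRGA 428 libraries, control 3 and treated 1 included, the genes fell into a few classes. The largest, 43 genes, were at 1 CPM or more in some controls but not in all treated libraries. Another 32 were at 1 CPM or more in some controls and in all treated libraries, and 32 were below it in the controls and reached it in some treated libraries. At 1 CPM or more in all 6 libraries were 7 genes, with medians of 3.73 CPM at 29 °C and 7.89 CPM at 38 °C. Log2 fold changes in IRGA 428 of these 7 genes ran from 0.04 to 1.12.

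A set of 15 genes stayed below 1 CPM in all 6 IRGA 428 libraries. Their means in IRGA 428 at 38 °C ran from 0 to 0.729 CPM, against 1.15 to 3.86 CPM in BR-IRGA 409. For 2 of the 15 there was no read in IRGA 428 at either temperature. MH04g0228000 had 0.283, 0.334 and 0.248 CPM at 29 °C and 4.56, 3.21 and 3.82 CPM at 38 °C in BR-IRGA 409, and 0 reads in each IRGA 428 library. At 38 °C its pooled level in BR-IRGA 409 was at least 81.8-fold higher, with 3 reads over the IRGA 428 treated group as the floor. MH01g0467600 had 0, 0.267 and 0.124 CPM at 29 °C and 2.00, 1.70 and 1.74 CPM at 38 °C in BR-IRGA 409, at least 38.3-fold higher at 38 °C than in IRGA 428.

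At the other end stood the genes with the highest mean in the IRGA 428 controls. MH12g0324600 had 26.1, 26.4 and 28.9 CPM at 29 °C and 23.8, 29.9 and 25.8 CPM at 38 °C in IRGA 428, and 0.565, 0.669 and 0.495 CPM at 29 °C and 3.28, 2.99 and 3.04 CPM at 38 °C in BR-IRGA 409. The temperatures overlapped in IRGA 428, and every IRGA 428 library lay above every BR-IRGA 409 library. In IRGA 428 its log2 fold change was 0.04 (SE 0.13, edgeR adjusted p = 0.904), without control 1 or treated 2 it was −0.026 or −0.036, and without control 3 and treated 1 it was 0.21.

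MH03g0141500 had 0.563, 0.183 and 213 CPM in the IRGA 428 controls and 216, 65.3 and 99.8 CPM in its treated libraries. Control 3 and treated 1 were nearly equal, and controls 1 and 2 were below 1 CPM, so the control mean rested on control 3. Its log2 fold change in IRGA 428 was 0.83 (SE 1.45, edgeR adjusted p = 0.819), but 8.70 (edgeR adjusted p = 0.0017) without control 3 and 8.10 (edgeR adjusted p = 0.000638) without control 3 and treated 1. It was 0.25 to 0.26 without any 1 of control 1, control 2 or treated 1. In BR-IRGA 409 it had 0.706, 0.468 and 0.124 CPM at 29 °C and 29.7, 34.7 and 52.8 CPM at 38 °C, below every treated library of IRGA 428.

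Among the 78 of the 132 genes with a mean of at least 1 CPM in IRGA 428, the largest log2 fold changes there were those of MH03g0472100 and MH07g0088000. MH03g0472100 had 0, 2.26 and 0 CPM at 29 °C and 0.0605, 5.42 and 7.52 CPM at 38 °C in IRGA 428 (2.47 on the log2 scale, SE 1.34, edgeR adjusted p = 0.449). In BR-IRGA 409 MH03g0472100 had 0.283, 0.134 and 0.124 CPM at 29 °C and 16.8, 2.01 and 7.44 CPM at 38 °C. The value in IRGA 428 was 1.81 without treated 3 and 2.40 without control 3 and treated 1. Without control 2 it was 9.77, but the remaining controls then held 0 reads, so that this fitted value depends on the prior count and is no bound. Again treated 2 and 3 of IRGA 428 were above its controls and treated 1 below control 2.

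MH07g0088000 had 0, 2.14 and 0.189 CPM at 29 °C and 0.424, 5.08 and 7.37 CPM at 38 °C in IRGA 428 (2.42 on the log2 scale, SE 1.06, edgeR adjusted p = 0.42). In BR-IRGA 409 MH07g0088000 had 0.989, 0.201 and 0 CPM at 29 °C and 9.12, 5.89 and 6.26 CPM at 38 °C. The value in IRGA 428 was 5.19 without control 2, 1.77 without treated 3, and 2.42 without control 3 and treated 1.

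The lowest log2 fold change of the 78 genes was that of MH08g0408800, the gene whose treated libraries all lay below its controls in IRGA 428 in plain CPM. On TMM-scaled library sizes treated 1 (1.22 CPM) lay above control 1 (1.12 CPM), so the temperatures overlapped. It had 1.24, 1.65 and 1.45 CPM (11, 27 and 23 reads) at 29 °C and 1.21, 0.242 and 0.963 CPM (20, 5 and 26 reads) at 38 °C. The fitted value was −0.79 on the log2 scale (SE 0.48, edgeR adjusted p = 0.481), −0.35 without treated 2, −1.14 without treated 1, and −1.11 without control 3 and treated 1. In BR-IRGA 409 it had 0.141, 0.267 and 0.124 CPM at 29 °C and 1.87, 1.51 and 1.03 CPM at 38 °C. The second lowest was MH12g0324600.

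**Figure D5:**
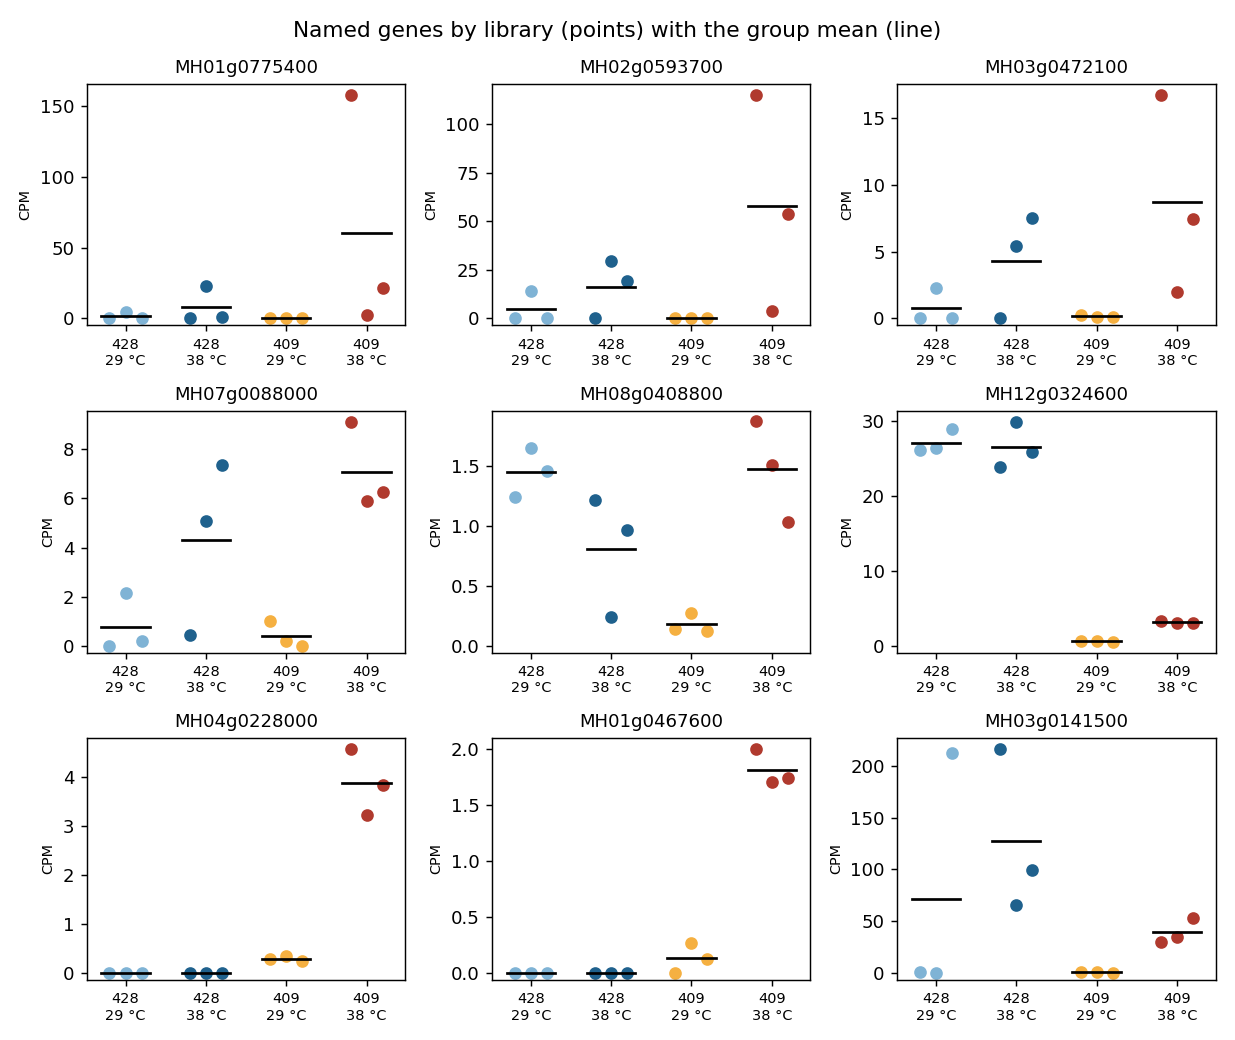
CPM of the 9 named genes in each library (points) with the group mean (line), for IRGA 428 and BR-IRGA 409 at 29 °C and 38 °C; each panel has its own axis. The 38 °C points of MH01g0775400 and MH02g0593700 spread from 2.51 to 157.8 CPM and from 4.04 to 115 CPM in BR-IRGA 409, and those of MH12g0324600 from 2.99 to 3.28 CPM.

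Set side by side, the log2 fold changes had medians of 2.97 in BR-IRGA 409 and 1.24 in IRGA 428, and for 0 of the 132 genes was the value larger in IRGA 428. The value in BR-IRGA 409 is enlarged by the choice of the genes, so the difference between the cultivars was not tested. In BR-IRGA 409, 96 of the 132 genes had an edgeR adjusted p below 0.05, where 6.72% of all genes were called higher, and nothing is read from this count because the same contrast chose the genes.

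The levels of the cultivars are likewise a description, since the BR-IRGA 409 libraries chose the genes. At 29 °C the IRGA 428 mean was above the BR-IRGA 409 mean for 112 of the 132 genes, with medians of 0.725 and 0.343 CPM. All IRGA 428 controls lay above all BR-IRGA 409 controls for 15 genes (11.4%; 10.9% of all genes tested), and the reverse held for 3 (2.27%; 5.65%). At 38 °C the medians were 1.65 and 2.72 CPM, and the IRGA 428 mean was above for 28 genes. All BR-IRGA 409 treated libraries lay above all IRGA 428 treated libraries for 44 genes (33.3%; 13.2% of all genes), and the reverse held for 9 (6.82%; 20.3%).

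The genes were spread over the genome as far as their IDs show it. Chromosome numbers were taken from the digits that follow MH, a reading the files leave unstated. All 12 numbers were represented, with 7 genes on chromosome 11 to 16 on chromosome 2. As a share of genes at 1 CPM in 3 libraries this was 0.400% on chromosome 1, the lowest, and 1.06% on chromosome 10, the highest.

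Neighbours in the order of IDs were both among the 132 in 2 pairs, on chromosomes 1 and 2. How many pairs other sets of 132 genes hold was not counted, so the number is not read as few or many. Of the pair on chromosome 2, the first gene had means at 38 °C of 6.10 CPM in BR-IRGA 409 and 2.95 CPM in IRGA 428, and the next gene 4.53 and 2.86 CPM. Of the pair on chromosome 1, the first gene had 4.15 CPM in BR-IRGA 409 and 6.61 CPM in IRGA 428 at 38 °C, and the next gene 2.02 and 0.0935 CPM.

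The other genes next to the 132 had much smaller changes at the median, as far as they were tested. In BR-IRGA 409 the choice of the 132 made this likely in advance, so it is a description there. Of the 260 neighbours outside the 132, 129 were tested, and their median log2 fold change was 0.13 in BR-IRGA 409 and 0.06 in IRGA 428. The medians over all genes tested were −0.005 and −0.003. Positive values made up 56.6% of these neighbours in BR-IRGA 409 and 58.9% in IRGA 428, against 49.1% and 49.3% of all genes tested. Whether these shares differed was not tested.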

How the data were processed

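Each deposited file holds the raw counts of 1 library by gene, which the authors neither normalized nor pooled. Per the submitters' processing notes they used Trimmomatic 0.33, HISAT2 2.05 and HTSeq 0.6.1. Not given in the sources used here are the genome build, the settings and any use of strand. Without strand, overlapping antisense genes cannot be told apart, and genes with near-identical copies are uncertain because reads with several alignments were not assigned. The 5 closing lines of each file, which name no gene (19.9% to 25.0% of a library), were left out.

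Groups came from sample titles. CPM is a gene's count divided by the library's gene counts. Across all genes, edgeR 4.0.16 in R 4.3.3 was run on the 12 libraries (filterByExpr, TMM scaling, 1 mean per group, robust quasi-likelihood F-test, Benjamini-Hochberg over 22321 genes, threshold 0.05). The SE of a log2 fold change is its size over the square root of F. The fit was tested on simulated data. Alternatives included limma-voom (limma 3.58.1) and DESeq2 1.42.0, other scalings, filters, thresholds, levels and folds, thinning to equal depth, a fit of IRGA 428 alone, a replicate block and leaving out libraries; leaving out IRGA 428 control 3 with treated 1, and TMM-scaled sizes for overlap, were added after seeing the data.

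The rule, the genes and the tests were chosen with earlier results of these data known. Genes were named by rule, at most 2 in each direction per comparison: for BR-IRGA 409 those with the highest treated mean; for heat in IRGA 428 those with the highest and the lowest log2 fold change among genes with a mean of at least 1 CPM there; for the cultivars those with 0 reads in IRGA 428 and those with the highest IRGA 428 control mean. No list by function was used, since the IDs carry no names. Intervals and floors (3 counts) cover counting error only, since without molecular identifiers a read is not an independent molecule.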

Additional observations from a re-analysis of the deposited data

Results flagged for a closer look

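MH08g0408800 had opposite directions in the cultivars without overlap between the libraries of either: its log2 fold change at 38 °C was −0.79 in IRGA 428, while in BR-IRGA 409 all treated libraries lay above all controls, as the choice of the genes required. In IRGA 428 the nearest values of the temperatures were 1.21 and 1.24 CPM, from 20 and 11 reads. On TMM-scaled library sizes these libraries stood at 1.22 and 1.12 CPM, so the temperatures overlapped in IRGA 428 and the opposite directions without overlap hold in plain CPM alone. The value in IRGA 428 was −0.35 without treated 2. The difference between the cultivars was not tested.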

How the results depend on the processing

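For heat in IRGA 428, edgeR called 0 of the 132 genes and 0 of all genes. DESeq2 called 13 of all genes, leaving out 1 library gave 0 to 13 of the 132 and 0 to 1518 of all genes (above 0 only without IRGA 428 control 3), and leaving out control 3 and treated 1 gave 13 and 1238. In the other alternatives both counts were 0. The median log2 fold change of the 132 genes ran from 0.88 to 1.98 with 1 library left out and from 1.23 to 1.53 otherwise, and 122 to 127 of them had a higher mean at 38 °C. The number of genes by the rule was 208 with a ratio of 2, 62 with a ratio of 8, and 128 to 209 with 1 BR-IRGA 409 library left out (209 without treated 2); at equal depth it was 127, of which 100 were among the 132. A level of 0.5 CPM gave 157 genes, 57 of them shared, and 2 CPM gave 112, 61 shared, so the level decides which genes are described. The rule in IRGA 428 was met by 0 of the 132 and 2 of all genes, with a ratio of 2 by 3 and 13, at equal depth by 2 and 8, with 1 library left out by 0 to 11 and 1 to 47, and without control 3 and treated 1 by 17 and 76. The cause was not tested. For MH01g0775400 the log2 fold change in IRGA 428 was 2.18 and ran from −1.24, without treated 2, to 5.10; for MH12g0324600 it was 0.04 and ran from −0.036, without treated 2, to 0.13 with 1 library left out, with −0.026 without control 1, and was 0.21 without control 3 and treated 1. Depth limits the 29 °C values of BR-IRGA 409, where 1 read was 0.0669 to 0.141 CPM.

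Equal replicate numbers matched the IRGA 428 libraries only in part: deviations from the group means correlated at 0.25, 0.58 and −0.16 for numbers 1, 2 and 3. Control 1 correlated best with treated 1, and control 2 with treated 2 (0.42 with treated 3). Control 3 correlated best with treated 1 (0.34). Whether equal numbers mark pairs cannot be told from these values. With a replicate block, 0 of the 132 genes and 0 of all genes were called, and the median log2 fold change was 1.44.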

Other observations

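The 2 genes that met the off-to-on rule in IRGA 428 were looked at after their number was known. The first had means in IRGA 428 of 0.591 CPM in the controls and 2.37 CPM in the treated libraries, and 0.614 and 12.5 CPM in BR-IRGA 409. The second had 0.272 and 1.65 CPM in IRGA 428, and 0.0223 and 0.845 CPM in BR-IRGA 409. Both were thus higher at 38 °C in the means of both cultivars.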
